A study of Mus musculus with 16 samples.

Results

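Selenoproteins carry selenium as the amino acid selenocysteine, which ribosomes insert at in-frame UGA codons that would otherwise end translation. Many of them are enzymes that remove peroxides or keep thiols reduced, and selenoprotein P is secreted to carry selenium between tissues. In the vessel wall they are known mainly for protection against oxidants. The 9 genes described here were chosen by name as selenoproteins with roles in transport, peroxide removal, thiol reduction and selenium supply, and all 9 were found in each expression table, among 38926 gene names in those of metaphyseal and marrow ECs and of Lats2 and 21603 in the Yap1/Taz lists. Sepp1 encodes the secreted carrier selenoprotein P. Gpx1, Gpx3 and Gpx4 are glutathione peroxidases of the cytosol, of plasma and of membrane lipids, and Txnrd1 is the cytosolic thioredoxin reductase. Sepw1, Selm and Sepn1 encode selenoproteins W, M and N, of which M and N belong to the endoplasmic reticulum, and Sephs2 makes the selenophosphate from which selenocysteine is built.

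RNA-seq of FACS-sorted bone endothelial cells (ECs) of C57BL/6 mice gave 16 libraries in 3 comparisons. The first set 3 libraries of ECs of the marrow cavity (bmECs) against 3 of the metaphysis (mpECs), both labelled wildtype and, by the study's methods, sorted from reporter animals (Cdh5-mTnG) aged 3 weeks. The second set 3 libraries labelled ECKO, which carried Yap1flx/flx and Wwtr1flx/flx alleles with Cdh5CreERT2, against 3 controls with the same floxed alleles and no Cre, all at postnatal day 21. The third set 2 libraries labelled Lats2 cKO (Lats2flx/flx with Cdh5CreERT2) against 2 labelled Lats2 Cont (Lats2flx/flx without Cre). By the study's methods these animals were also aged 3 weeks. The Cdh5 promoter drives the tamoxifen-dependent Cre in ECs, so deletion depends on recombination in each sorted cell. The study's methods describe its RNA-seq replicates as biological and in triplicate, and 2 libraries a group were analysed here for Lats2. The labels do not say whether a library held 1 animal or pooled animals, and the p-values measure the spread between these libraries. The values are FPKM, nominally fragments per length of gene and sequencing depth. The tables were normalized separately, so tests were made within a table only.

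Each member's selenocysteine codon is shown because it is the feature that defines the family. The runs below are coding sequence of the annotated transcripts (GENCODE M21, GRCm38), given 5′ to 3′ on the strand of the gene, with the in-frame TGA codon in capitals. The Sepp1 run is that of the first of its 10 such codons, while every other member had 1.
Sepp1 (chr15:3274848-3274850, plus strand): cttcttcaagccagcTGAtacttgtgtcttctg
Gpx1 (chr9:108339451-108339453, plus strand): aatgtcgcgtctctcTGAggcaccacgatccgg
Gpx3 (chr11:54907256-54907258, plus strand): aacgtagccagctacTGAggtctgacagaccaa
Gpx4 (chr10:80054737-80054739, plus strand): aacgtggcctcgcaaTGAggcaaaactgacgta
Txnrd1 (chr10:82896037-82896039, plus strand): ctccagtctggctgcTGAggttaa
Sepw1 (chr7:15920464-15920466, minus strand): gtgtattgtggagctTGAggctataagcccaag
Selm (chr11:3516273-3516275, plus strand): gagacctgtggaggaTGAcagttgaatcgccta
Sepn1 (chr4:134542338-134542340, minus strand): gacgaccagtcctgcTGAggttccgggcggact
Sephs2 (chr7:127273731-127273733, minus strand): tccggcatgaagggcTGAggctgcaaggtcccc
In 7 of the 9 members the codon was followed by GG. In Txnrd1 the run ends with the stop codon, since selenocysteine is codon 498 of 499. The selenocysteine codons of Sepp1 were codon 59 and then 9 between codons 259 and 377 of 380, and the last 4 of them (chr15:3279663-3279698) lay within one short run.
Sepp1, last codons: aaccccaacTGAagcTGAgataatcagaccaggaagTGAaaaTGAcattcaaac

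Sequencing depth, taken from reads recovered from the FPKM values, was 11541085 to 15401688 reads per library for mpECs and bmECs, 4886215 to 7165629 for the control and ECKO-labelled libraries and 4878604 to 7335710 for the Lats2 libraries. The sum of 8 endothelial markers was 975 to 1227 FPKM in mpECs and bmECs, 488 to 648 FPKM in the second set and 1559 to 1733 FPKM in the Lats2 libraries. The sorted cells also held blood cell RNA, since erythroid markers summed to 17687 to 37741 FPKM and neutrophil markers to 9430 to 27725 FPKM in mpECs and bmECs, with 0 of 7 genes called in either list. In the second set, 12 macrophage markers summed to 1285 to 1845 FPKM in controls and 1336 to 1459 FPKM in the libraries labelled ECKO. These sums exceeded the endothelial sums of the same libraries. The part of macrophages in the member levels there was not tested. In whole-gene FPKM, the targeted genes went against 1 of the labels. Wwtr1, which encodes Taz, was at 10.01, 9.88 and 10.3 FPKM in controls and at 15.3, 19.6 and 19.5 FPKM in the libraries labelled ECKO, and rose (log2 fold change 0.78, limma adjusted p = 0.0272). Yap1 was at 0.989 to 1.62 FPKM in both groups (log2 fold change -0.04, limma adjusted p = 0.934), and any direction given below for this comparison is that of the labels. By contrast, the study reports lower Yap1 and Wwtr1 transcripts by qPCR in isolated mutant bone ECs, and weaker Yap1 immunostaining. A value for the whole gene cannot show whether single exons were lost. Lats2 was at 23.4 and 24.0 FPKM in Lats2 Cont and 19.2 in both Lats2 cKO libraries (log2 fold change -0.29, limma adjusted p = 0.125), so the groups did not overlap but the difference did not pass the test.

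Sepp1 was the member with the highest mean level in mpECs, bmECs, Lats2 Cont and the libraries labelled ECKO, and Gpx1 came next in each of them. In the libraries labelled ECKO the ranges of Sepp1 and Gpx1 overlapped. FPKM is a level per length, so genes can be ranked within a library. Sepp1 took rank 7 or 8 of all genes in the bmEC libraries, rank 14 to 19 in mpECs, rank 4 in both Lats2 Cont libraries and rank 32 and 65 in Lats2 cKO. In Lats2 cKO, Gpx1 stood first by its mean and its range overlapped that of Sepp1. In the controls of the second set Gpx1 was first and Sepp1 second, with no overlap. Sepw1 and Gpx4 held the next places in every group, and Sepn1, at 3.56 to 6.94 FPKM, was the lowest in mpECs and bmECs.

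**Figure D1:**
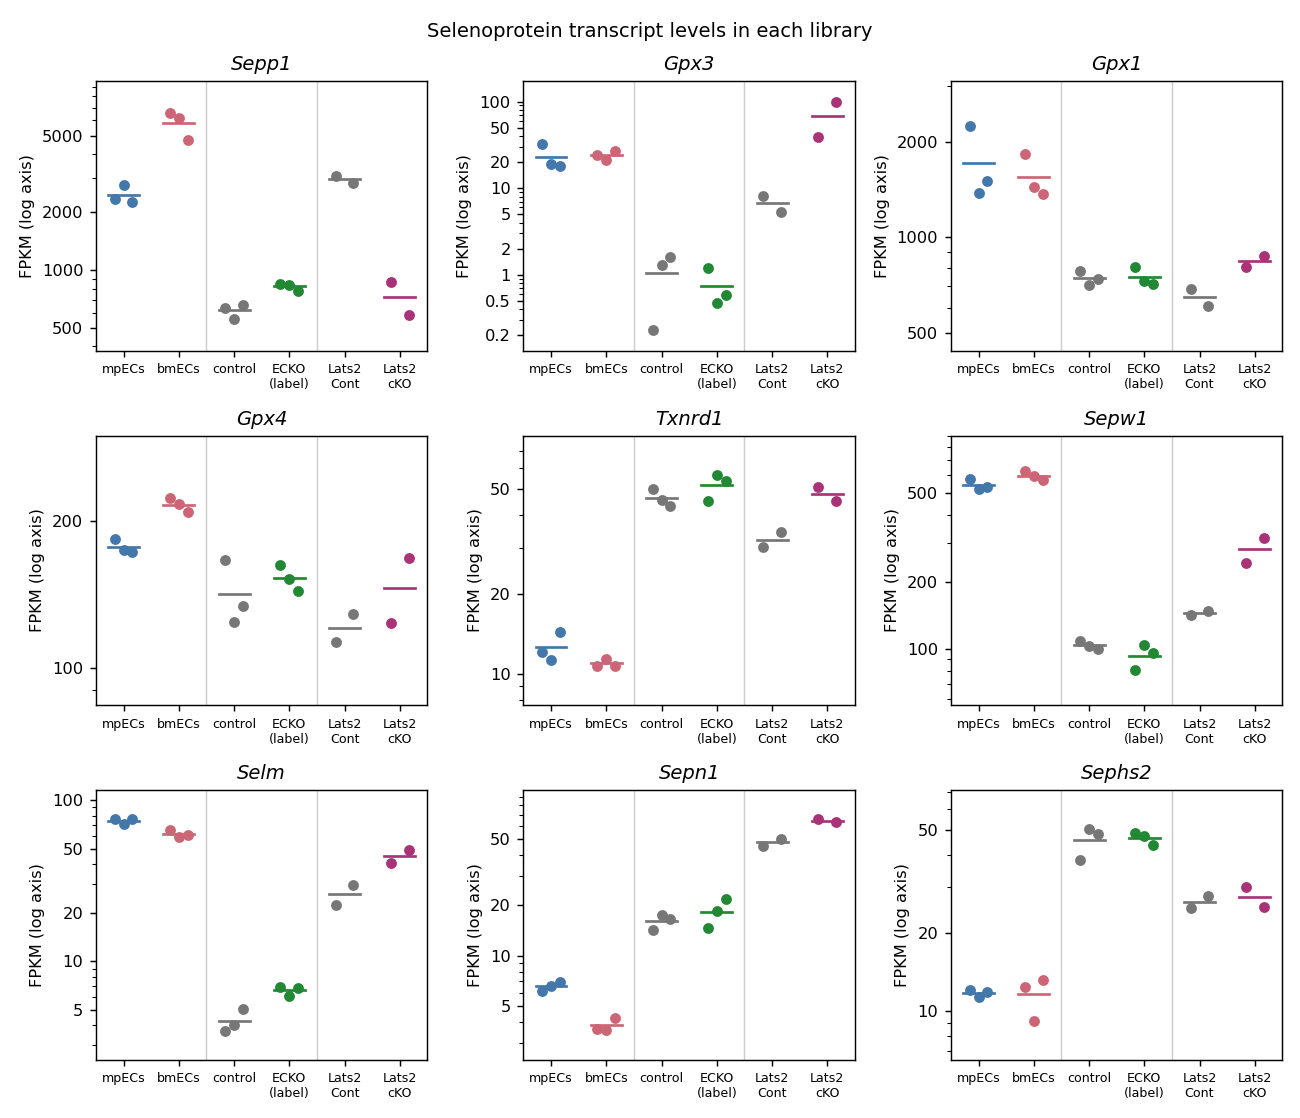
Level of each of the 9 genes in FPKM, on a log axis, in each of the 16 libraries, where points are libraries, bars are group means and vertical lines part the separately normalized tables. Sepp1 lies at 4722 FPKM or more in bmECs and at 2780.0 FPKM or less in mpECs, and Gpx3 lies at 39.0 and 98.1 FPKM in Lats2 cKO against 5.29 and 8.09 FPKM in Lats2 Cont.

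Between regions of the bone, Sepp1 and Gpx4 were higher in bmECs, while Sepn1 and Selm were lower. The Sepp1 and Sepn1 calls held under all 14 alternative settings, the Gpx4 call under 6 of them and the Selm call under 7. Of the 9 members, all of which were tested, 2 rose, 2 fell and 5 did not pass the test. Among the 11422 genes tested, 23.5% passed it (13% higher and 10.5% lower), so 4 of 9 members is to be read against that share. The median log2 fold change of the members was -0.03 and that of all genes -0.00068. Groups did not overlap for 4 members, against 41.3% of all genes.

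Sepp1 was at 2345, 2780.0 and 2254 FPKM in the mpEC libraries and at 6538, 6190.3 and 4722 FPKM in the bmEC libraries. Every bmEC library thus lay well above every mpEC library, and the ratio of the means was 2.36. The log2 fold change was 1.23 ± 0.16 (SE, limma adjusted p = 0.00111, n = 3 and 3). Sepp1 was one of the genes the study itself singled out from these libraries, so its direction here is not independent evidence. It stayed past the threshold under all 14 alternative settings, with a log2 fold change between 1.00 and 1.38. Of its exon bases, 15.4% overlap Ccdc152 on the other strand. The libraries were made with a stranded kit, and the strand option used in counting is not given in the sources used here. Ccdc152 was at 18.5 to 20.7 FPKM in mpECs and 28.5 to 51.2 FPKM in bmECs, a small part of the Sepp1 level.

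Sepp1 made up much of what the family contributed. Summed over the 23 selenoprotein genes in the table, the level was 5516 to 6391 FPKM in mpECs and 7763 to 10251 FPKM in bmECs. Sepp1 accounted for 36.7% to 47.3% of that sum in mpECs and for 60.8% to 65.7% in bmECs. Without Sepp1 the sums overlapped, at 3096 to 4047 FPKM in mpECs and 3041 to 3713 FPKM in bmECs.

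**Figure D2:**
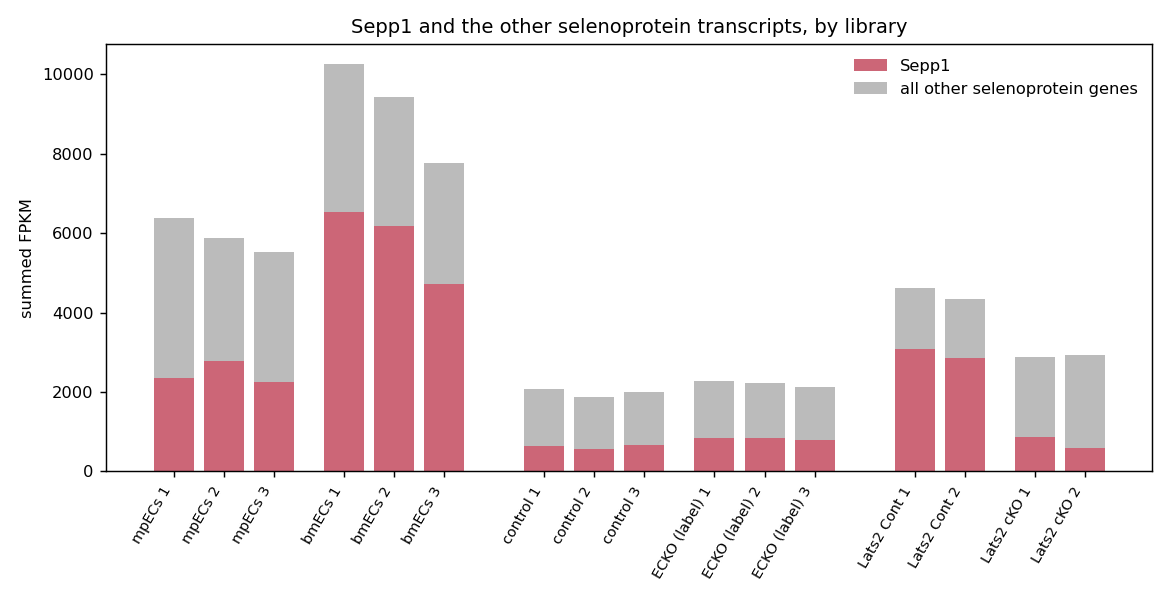
Summed FPKM of all selenoprotein genes in each library, with Sepp1 in colour and the other genes in grey, from 0. The Sepp1 part is 60.8% to 65.7% of the bar in bmECs and 65.5% to 66.7% in Lats2 Cont, and falls to 19.8% and 30.0% in Lats2 cKO.

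Some genes listed here as markers of other cells moved with Sepp1. The sum of 12 macrophage markers was 137 to 185 FPKM in mpECs and 355 to 437 FPKM in bmECs, and 2 of its 9 tested genes were higher in bmECs, Mrc1 and Cd5l. Mrc1, the mannose receptor, went from 85.1 to 114 FPKM in mpECs to between 300.1 and 351 FPKM in bmECs. Without Mrc1 the sums of the other 11 markers overlapped, at 51.4 to 87.7 FPKM in mpECs and 54.9 to 87.4 FPKM in bmECs. Osteoblast markers summed to 229 to 810 FPKM in mpECs and 44.6 to 59.3 FPKM in bmECs, with 4 of 6 tested genes lower and none higher. Stromal and pericyte markers summed to 174 to 246 and 482 to 525 FPKM, with 2 of 4 higher, Kcnj8 and Lepr. Kcnj8, a potassium channel gene, made up most of that sum, at 131 to 199 FPKM in mpECs and 440 to 465 FPKM in bmECs, and without it the sums of the other 5 markers overlapped, at 43.0 to 48.3 and 28.8 to 66.6 FPKM. The part of osteoblast and stromal cells in the selenoprotein differences was not tested. In sorted bulk RNA, fewer cells of a type and less RNA per cell cannot be told apart.

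**Figure D3:**
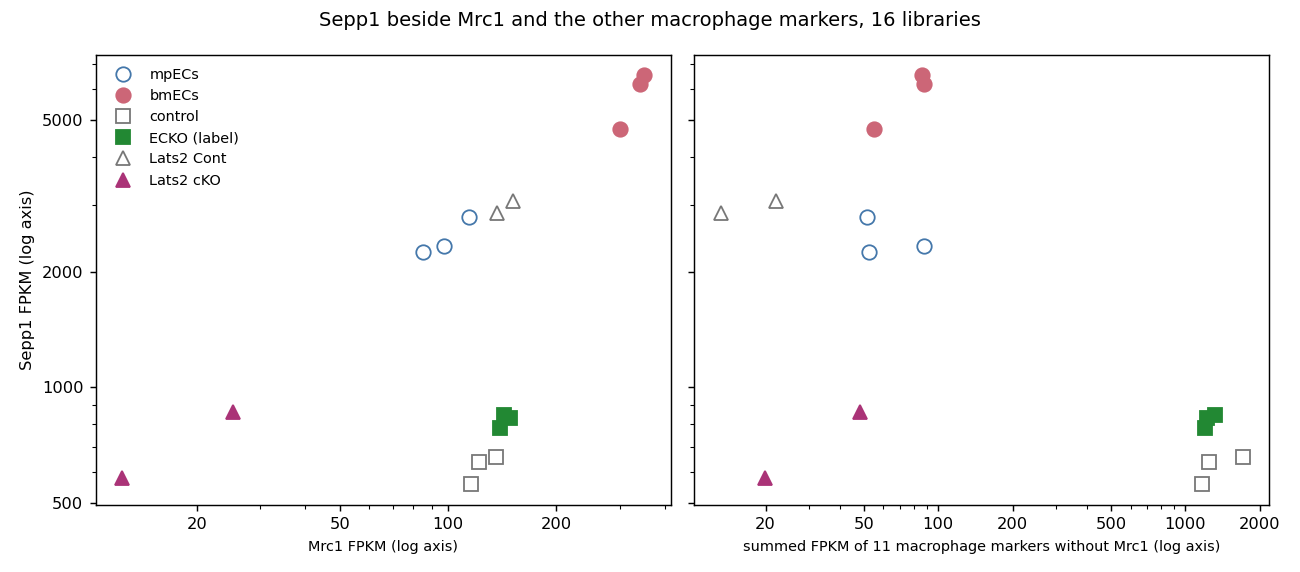
Sepp1 FPKM against Mrc1 FPKM (left) and against the summed FPKM of the other 11 macrophage markers (right) in the 16 libraries, all axes logarithmic. The mpEC and bmEC libraries overlap on the right, at 51.4 to 87.7 and 54.9 to 87.4 FPKM, and are apart on the left, where Mrc1 is at 85.1 to 114 and 300.1 to 351 FPKM.

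Gpx4, which reduces lipid peroxides in membranes, was at 184, 174 and 172 FPKM in mpECs and at 222, 217 and 208 FPKM in bmECs. The groups did not overlap but lay close together. Gpx4 rose by 0.29 ± 0.07 on the log2 scale (SE, limma adjusted p = 0.0264). The call was lost without bmECs replicate 1 or 2 or mpECs replicate 2 or 3 (adjusted p of the limma fit 0.0966, 0.0900, 0.0729 and 0.103), and also when every library was scaled to the same total (log2 fold change 0.14, adjusted p = 0.203), under quantile normalization (0.15, adjusted p = 0.111) and without the mean-variance trend (adjusted p of the limma fit 0.055). With limma-voom on recovered reads, its log2 fold change was 0.08 (adjusted p = 0.402).

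The reticulum selenoprotein gene Sepn1, whose product guards calcium handling, was at 6.10, 6.59 and 6.94 FPKM in mpECs and at 3.63, 3.56 and 4.25 FPKM in bmECs. It was lower in every bmEC library, with a log2 fold change of -0.65 ± 0.11 (SE, limma adjusted p = 0.00403), and stayed past the threshold under all 14 alternatives. Selm was at 76.4, 71.5 and 75.9 FPKM in mpECs and at 65.6, 58.8 and 60.7 FPKM in bmECs. It fell by 0.27 ± 0.08 on the log2 scale (SE, limma adjusted p = 0.0398). That call rested on all 6 libraries, since leaving out any 1 of them raised the adjusted p of the limma fit to between 0.0555 and 0.136.

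The remaining 5 members did not pass the test between regions. Gpx1, the cytosolic peroxidase, was at 2249, 1379 and 1513 FPKM in mpECs and at 1840.3, 1445 and 1372 FPKM in bmECs (log2 fold change -0.12, limma adjusted p = 0.703). The secreted peroxidase Gpx3 was at 32.1, 19.2 and 18.2 FPKM and at 24.2, 21.0 and 26.9 FPKM (log2 fold change 0.09, limma adjusted p = 0.792). Both genes were highest in mpECs replicate 1. In that library the summed level of 7 neutrophil markers was 27725 FPKM, against 11603 and 17971 FPKM in the other mpEC libraries. The erythroid, B cell, osteoblast, megakaryocyte and macrophage sums were also highest there. The erythroid sum was 32916 FPKM, against 17687 and 21441 FPKM in the other mpEC libraries. Among bmECs, Gpx1 was highest in replicate 1, where the neutrophil sum was 13844 FPKM, against 9430 and 9896 FPKM in the others. Erythroid sums of bmECs replicates 1, 2 and 3 were 37741, 35084 and 27466 FPKM. Gpx3 was highest in bmECs replicate 3. The part of any of these cells in the Gpx1 and Gpx3 values was not tested. Without mpECs replicate 1, the log2 fold change of Gpx1 was 0.09. Txnrd1 was at 11.4 to 14.4 FPKM in mpECs and 10.8 to 11.4 FPKM in bmECs (log2 fold change -0.18, limma adjusted p = 0.252), and was called lower by limma-voom on recovered reads (log2 fold change -0.40, adjusted p = 0.0277). Sepw1 and Sephs2 had log2 fold changes of 0.14 and -0.03.

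The scale affected the balance of calls over all genes in this comparison. There were 1481 higher and 1201 lower genes, and 904 and 1966 when each library was scaled to the same total, which moved the median of all genes by -0.14 on the log2 scale. On that scale the log2 fold changes were 1.08 for Sepp1, 0.14 for Gpx4, -0.85 for Sepn1 and -0.42 for Selm. Taking off the shift of the median brings them back, by construction, near the unscaled values, at 1.22, 0.28, -0.71 and -0.28.

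**Figure D4:**
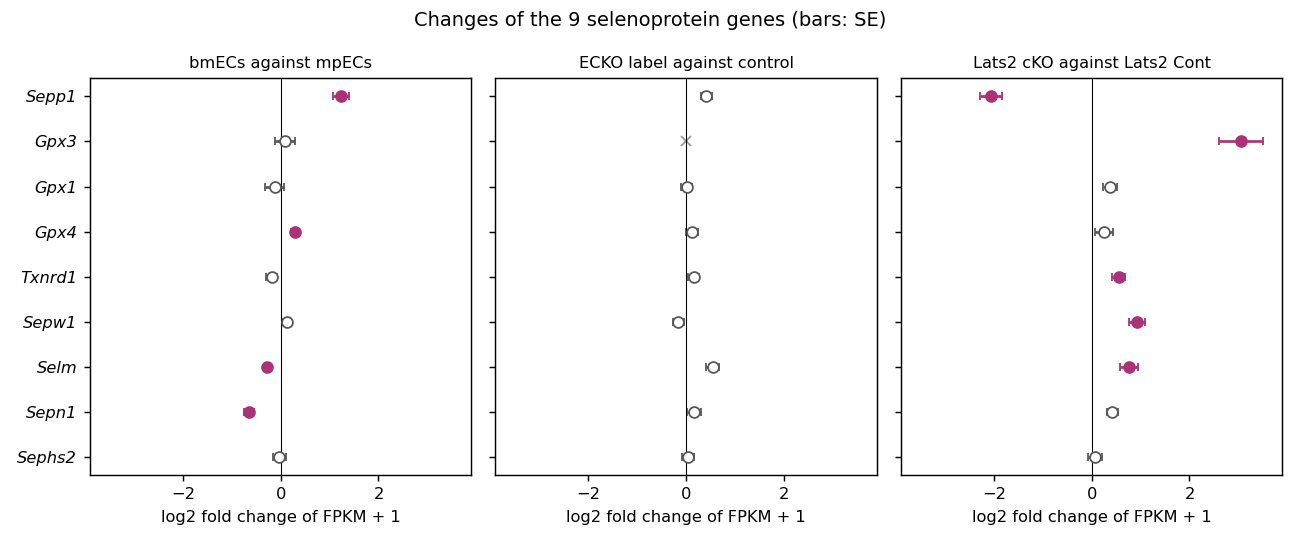
Log2 fold change of FPKM + 1 with its SE for the 9 genes in each comparison, where filled points passed an adjusted p of 0.05, open points did not and a cross marks a gene that was not tested. Sepp1 lies at 1.23 in bmECs against mpECs and at -2.06 in Lats2 cKO against Lats2 Cont, and no gene passed in the middle panel.

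In the Lats2 comparison the carrier and the plasma peroxidase moved in opposite directions. Sepp1 fell, while Gpx3, the cytosolic Sepw1, Selm and the thioredoxin reductase Txnrd1 rose in Lats2 cKO. Of the 9 members, all tested, 4 rose, 1 fell and 4 did not pass the test, where 21.8% of 12453 genes passed it (11.8% higher and 9.98% lower). The median log2 fold change of the members was 0.42, and that of all genes was -0.0033. With 2 libraries a group, the groups did not overlap for 7 members and for 68.2% of all genes.

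Sepp1 was at 3072 and 2847 FPKM in the Lats2 Cont libraries and at 863 and 581 FPKM in the Lats2 cKO libraries. Both Lats2 cKO libraries were far below both controls, and the ratio of the Lats2 Cont mean to the Lats2 cKO mean was 4.10. The log2 fold change was -2.06 ± 0.23 (SE, limma adjusted p = 0.0101, n = 2 and 2). Reads on the gene, recovered from the FPKM values, numbered 43436 and 48087 in Lats2 Cont and 9247 and 8222 in Lats2 cKO, so counting error was small. Summed without Sepp1, the selenoprotein genes were at 1535 and 1501 FPKM in Lats2 Cont and at 2012 and 2355 FPKM in Lats2 cKO. The study reports a strong fall of genes characteristic of bmECs in Lats2 mutant ECs. Of 8 endothelial markers, 1 was called higher and 2 lower in Lats2 cKO. Tek went from 215 and 213 FPKM in Lats2 Cont to 107 and 65.2 FPKM in Lats2 cKO. Pecam1 went from 188 and 207 FPKM to 346 and 369 FPKM. Fewer marrow ECs in the sort and less Sepp1 RNA per cell cannot be told apart in bulk RNA, and neither was tested.

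Gpx3 was at 8.09 and 5.29 FPKM in Lats2 Cont and at 39.0 and 98.1 FPKM in Lats2 cKO. The Lats2 cKO libraries differed widely from each other, and both were above both controls. Gpx3 rose by 3.06 ± 0.45 on the log2 scale (SE, limma adjusted p = 0.0147), the largest absolute log2 fold change of any member in any comparison. Reads numbered 73 and 57 in Lats2 Cont and 267 and 885 in Lats2 cKO. Without Lats2 cKO replicate 2, the library with the higher value, the log2 fold change was 2.40 (adjusted p of the limma fit 0.0409).

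Sepw1, a small cytosolic thiol protein, was at 142 and 148 FPKM in Lats2 Cont and at 243 and 316 FPKM in Lats2 cKO, and rose by 0.93 ± 0.16 on the log2 scale (SE, limma adjusted p = 0.0203). Selm was at 22.3 and 29.7 FPKM and at 40.6 and 48.8 FPKM, with a log2 fold change of 0.77 ± 0.18 (SE, limma adjusted p = 0.0404). Txnrd1 was at 30.1 and 34.4 FPKM and at 50.8 and 45.0 FPKM, with a log2 fold change of 0.56 ± 0.13 (SE, limma adjusted p = 0.0408). In each of these genes both Lats2 cKO libraries exceeded both controls. The Txnrd1 call was kept under 2 of 12 alternatives and the Selm call under 5 of 12, and both were lost without any 1 of the 4 libraries, with adjusted p-values of the limma fit from 0.0702 to 0.268.

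All 5 calls rested on both controls. With either Lats2 Cont replicate left out, 0 of 12465 or 12512 genes passed the limma test, and Sepp1 kept a log2 fold change of -2.01 or -2.12 (adjusted p = 0.136 and 0.122) and Gpx3 one of 3.32 or 2.79 (adjusted p = 0.132 and 0.137). In these fits the lone control was taken to vary like the Lats2 cKO libraries. Under the 10 other alternatives Sepp1 and Gpx3 stayed past the threshold.

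The other members were at similar or somewhat higher levels in Lats2 cKO and did not pass the test. Sepn1 was at 45.8 and 50.3 FPKM in Lats2 Cont and 65.7 and 63.4 FPKM in Lats2 cKO (log2 fold change 0.42, limma adjusted p = 0.0577), and was called higher under 1 of 12 alternatives, a filter at 5 FPKM (limma adjusted p = 0.0466). Gpx1 was at 687 and 608 FPKM and at 809 and 872 FPKM (log2 fold change 0.38, limma adjusted p = 0.123). The groups did not overlap for either gene. Gpx4 was at 113 and 129 FPKM and at 123 and 168 FPKM, and Sephs2 at 24.99 and 27.7 FPKM and at 30.0 and 25.3 FPKM, and both overlapped between groups.

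Blood cell markers were lower in Lats2 cKO. Summed erythroid markers were at 1876 to 2579 FPKM in Lats2 Cont and 146 to 1074 FPKM in Lats2 cKO, with 3 of 7 tested genes lower and 0 higher. For neutrophil markers the sums were 1918 to 2873 and 703 to 843 FPKM with 5 of 7 lower, and for B cell markers 78.2 to 89.9 and 16.5 to 24.6 FPKM with 5 of 5 lower. Megakaryocyte markers summed to 29.1 to 106 and 9.45 to 12.1 FPKM, with 1 of 4 lower. Stromal and pericyte markers summed to 390 to 436 and 117 to 136 FPKM, with 2 of 5 higher and 1 lower. The lower gene was Kcnj8, at 359 to 398 FPKM in Lats2 Cont and 55.4 to 82.6 FPKM in Lats2 cKO, and without it the sums of the other 5 were higher in Lats2 cKO, at 31.3 to 37.8 and 53.1 to 62.1 FPKM. Osteoblast markers summed to 13.8 to 80.9 and 43.2 to 68.6 FPKM, with 1 of 6 higher, Spp1, at 3.57 to 6.83 FPKM in Lats2 Cont and 25.9 to 53.9 FPKM in Lats2 cKO. The part of all these cells in the rises of Gpx3, Sepw1, Selm and Txnrd1 was not tested. Mrc1 fell beside Sepp1, from 137 and 151 FPKM to between 12.4 and 25.2 FPKM, while the other macrophage markers summed to 13.1 to 22.1 FPKM in Lats2 Cont and 19.8 to 48.3 FPKM in Lats2 cKO, with Cd5l at 0 in all 4 libraries.

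Scaling each library to the same total moved the median of all genes in this comparison by -0.25 on the log2 scale and turned 1468 higher and 1243 lower genes into 816 and 1751. Under that scaling Sepp1, Gpx3 and Sepw1 kept their calls. Relative to the shifted median, which by construction brings values back near the unscaled ones, the log2 fold changes were -2.09 for Sepp1, 3.15 for Gpx3, 0.91 for Sepw1, 0.76 for Selm and 0.54 for Txnrd1.

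In the libraries labelled ECKO no member passed the test. Of the 9 members, 8 were tested and 0 were called, where 1.31% of 11320 genes were (0.883% higher and 0.424% lower), and 2 members had an unadjusted limma p under 0.05. Limma-voom on recovered reads called 1 member, Sepp1. The median log2 fold change of the 8 members was 0.14, and that of all genes was -0.0047. Groups did not overlap for 2 members, against 23.6% of all genes.

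Those 2 members were Sepp1 and Selm. Sepp1 was at 637, 558 and 659 FPKM in controls and at 849, 832 and 781 FPKM in the libraries labelled ECKO. All 3 libraries labelled ECKO were above all 3 controls, but the log2 fold change of 0.41 ± 0.11 (SE) had a limma adjusted p of 0.102, and 0.0461 with limma-voom on recovered reads. Selm was at 3.70, 4.02 and 5.02 FPKM in controls and at 6.94, 6.12 and 6.77 FPKM in the libraries labelled ECKO. The groups did not overlap, at 26 to 57 recovered reads per library, and the log2 fold change was 0.54 ± 0.13 (SE, limma adjusted p = 0.0725).

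The 6 tested members left showed log2 fold changes from -0.16 for Sepw1 to 0.16 for Sepn1, and their groups overlapped. Gpx1 was at 708 to 782 FPKM in controls and 713 to 805 FPKM in the libraries labelled ECKO. Gpx3 had a mean below 1 FPKM over the 6 libraries and was not tested, with 2 to 18 recovered reads per library. Several marker sums also stood apart between these groups. The endothelial sums were 488 to 498 FPKM in controls and 563 to 648 FPKM in the libraries labelled ECKO, with 0 of 8 genes called. B cell markers summed to 199 to 229 and 159 to 166 FPKM, with 0 of 5 called and 5 of 5 at an unadjusted limma p under 0.05. Stromal and pericyte markers summed to 62.6 to 71.0 and 79.3 to 102 FPKM, with 0 of 5 called, and overlapped without Kcnj8, at 14.4 to 17.97 and 15.2 to 18.03 FPKM. Osteoblast markers summed to 41.0 to 60.1 and 13.2 to 30.9 FPKM, with 2 of 6 lower. Macrophage markers overlapped, at 1285 to 1845 and 1336 to 1459 FPKM with 0 of 12 called, while Mrc1 among them was at 116 to 135 and 139 to 148 FPKM (limma adjusted p = 0.293). Of 4 megakaryocyte markers 1 rose, Ppbp, from 1.95 to 2.54 FPKM in controls to between 6.15 and 7.13 FPKM in the libraries labelled ECKO, and their sums overlapped. The part of these cells in the Sepp1 and Selm values was not tested.

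The lists around the members are given beside the share of all genes called, 23.5% between regions and 21.8% in the Lats2 comparison, and no list was tested against other genes. Of 15 other selenoproteins, 9 were tested in bmECs against mpECs, where 1 rose and 1 fell, and 10 in Lats2 cKO against Lats2 Cont, where 1 rose. Selenoh, a nuclear redox protein, was the gene called in both. It was at 127, 109 and 124 FPKM in mpECs and at 73.3, 60.01 and 63.7 FPKM in bmECs (log2 fold change -0.86, limma adjusted p = 0.000846). In Lats2 cKO it was at 71.3 and 85.1 FPKM, above 27.0 and 29.1 FPKM in Lats2 Cont (log2 fold change 1.44, limma adjusted p = 0.00855). Vimp, a reticulum selenoprotein of protein quality control, rose from 85.4 to 94.4 FPKM in mpECs to between 109 and 134 FPKM in bmECs (log2 fold change 0.45, limma adjusted p = 0.0120). The 5 genes of the list in the bmEC and mpEC table that were not tested had means below 1 FPKM.

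The next list is the machinery that supplies and inserts selenium. Of 12 such genes, 10 were tested between regions and 1, Trnau1ap, a partner of the selenocysteine tRNA, was called, at 11.8 to 14.3 FPKM in mpECs and 16.4 to 17.8 FPKM in bmECs (log2 fold change 0.33, limma adjusted p = 0.0434). In the Lats2 comparison 2 of 11 rose. Pstk, the kinase that prepares the serine on that tRNA, was at 3.51 and 3.24 FPKM in Lats2 Cont and at 5.96 and 5.44 FPKM in Lats2 cKO (log2 fold change 0.61, limma adjusted p = 0.0457). Sars, the enzyme that loads the serine, was at 26.8 and 29.4 FPKM and at 42.4 and 40.4 FPKM (log2 fold change 0.54, limma adjusted p = 0.0324). The median log2 fold changes of the list were 0.08 between regions and 0.12 in the Lats2 comparison.

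The last list is of thiol and peroxide genes that work beside the selenoproteins. Of 26 genes, 25 were tested between regions, where 7 rose and 5 fell in bmECs. The median log2 fold change was 0.0025. Txnip, the inhibitor of thioredoxin, was at 208, 276 and 201 FPKM in mpECs and at 518, 487 and 420.1 FPKM in bmECs (log2 fold change 1.06, limma adjusted p = 0.00138). Hmox1, which breaks down heme, and Nfe2l2, the factor Nrf2 that drives antioxidant genes, rose by 1.06 and 0.48 on the log2 scale (limma adjusted p = 0.00255 and 0.00488). Sod3, an extracellular superoxide dismutase, was at 2.75 to 3.10 FPKM in bmECs and passed the test against 1 to 6 recovered reads per library in mpECs. Gpx8 and Gpx7, peroxidases of the reticulum without selenium, fell by 1.64 and 0.57, Prdx4 fell by 0.84, and Txn1, the thioredoxin that Txnrd1 reduces, fell by 0.54 on the log2 scale, from 203 to 248 FPKM in mpECs to between 141 and 168 FPKM in bmECs.

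In the Lats2 comparison 24 of the 26 were tested, and 9 rose and 2 fell in Lats2 cKO. Gpx8 was at 4.15 and 2.48 FPKM in Lats2 Cont and at 32.6 and 52.8 FPKM in Lats2 cKO (log2 fold change 3.33, limma adjusted p = 0.00808). Txn1 was at 85.1 and 87.8 FPKM and at 173 and 210.0 FPKM (log2 fold change 1.13, limma adjusted p = 0.0115). Prdx4 and Nqo1, a reductase under Nrf2, rose by 1.01 and 0.99 on the log2 scale. Txnip was at 610 and 504 FPKM in Lats2 Cont and at 215 and 185 FPKM in Lats2 cKO (log2 fold change -1.47, limma adjusted p = 0.00986), and Hmox1 fell by 0.55. In the libraries labelled ECKO, 0 of 10 other selenoproteins, 0 of 11 supply genes and 0 of 24 thiol and peroxide genes passed the limma test, and 0, 0 and 5 had an unadjusted p under 0.05.

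**Figure D5:**
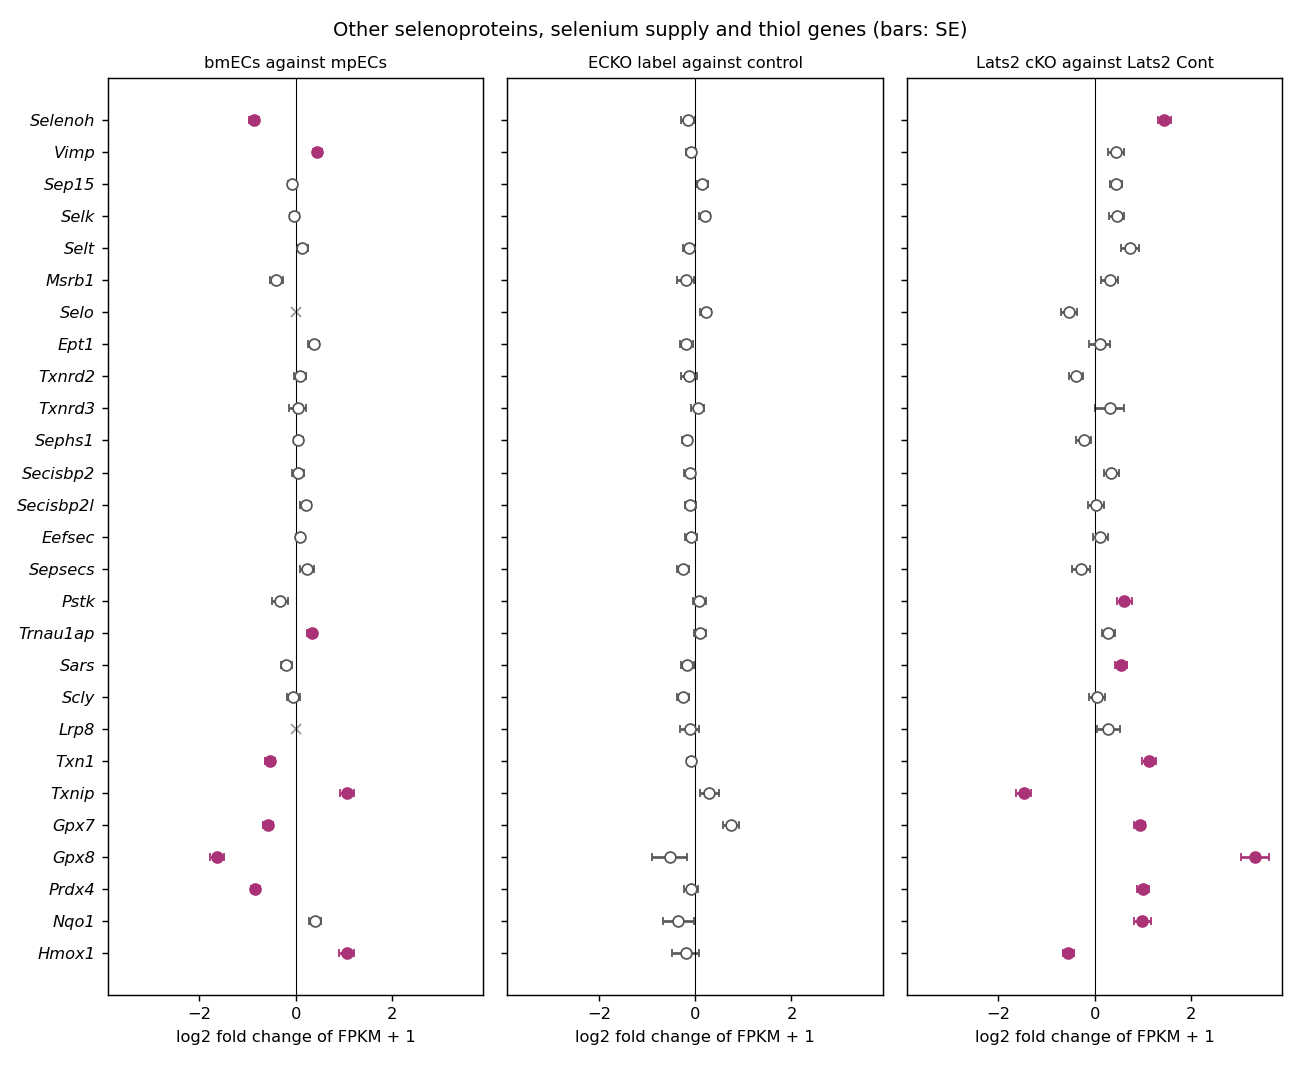
Log2 fold change of FPKM + 1 with its SE for 10 other selenoproteins, 10 selenium supply genes and 7 thiol and peroxide genes in each comparison. Filled points passed an adjusted p of 0.05, open points did not and a cross at 0 marks a gene that was not tested. The 7 were picked from genes called between regions or in the Lats2 comparison. Of the whole thiol and peroxide list, 13 of 25 tested genes between regions and 13 of 24 in the Lats2 comparison were not called. Selenoh lies at -0.86 on the left and 1.44 on the right, and Txnip at 1.06 on the left and -1.47 on the right.

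The genes whose pattern was most like a member's were sought among the 5134 genes whose mean reached 5 FPKM in each table, by Pearson's r of log2(FPKM + 1) centred within each table over the 16 libraries. These points share tables and group structure, so r is a description. For Sepp1 the closest were Mmrn1 (r = 0.9902), Mrc1 (r = 0.987) and Gpm6a (r = 0.987). For Gpx1 the closest were Tfg (r = 0.878), Serpinb1a (r = 0.841) and Taldo1 (r = 0.827), and for Sepw1 they were Tpi1 (r = 0.976), Rps27 (r = 0.967) and Tceb2 (r = 0.965). Among the members, r was -0.741 for Sepp1 with Sepn1, -0.695 with Txnrd1 and -0.665 with Sepw1.

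Promoter letters were searched because the groups differ in regulators with known binding letters. RefSeq gave 16 start sites of the 9 genes (GRCm38.p6), and the 250 bases before each were read on both strands. GGAATG, bound by the TEAD partners of Yap1 and Taz, was in 0 of the 16, against 12.6% of all promoters of that length. ACGTG, the A form of the RCGTG core bound by HIF (R is A or G), was in 3, those of Selm, Gpx1 and Sephs2, against 16.6%. The G form, GCGTG, was not searched and occurs unmarked in the Txnrd1 window printed below. TGACNNNGC, the antioxidant response letters bound by Nrf2, was in 1 start of Txnrd1, against 10.2%. The 3 motifs did not overlap each other in these windows. The windows of Sepp1 (its first start, chr15:3270517-3270766) and Gpx3 (chr11:54902604-54902853), the members with the largest changes, are given with that of Txnrd1 (chr10:82858956-82859205), all on the plus strand, with matches in capitals. No match says only that these letters are not in the window.
Sepp1 promoter: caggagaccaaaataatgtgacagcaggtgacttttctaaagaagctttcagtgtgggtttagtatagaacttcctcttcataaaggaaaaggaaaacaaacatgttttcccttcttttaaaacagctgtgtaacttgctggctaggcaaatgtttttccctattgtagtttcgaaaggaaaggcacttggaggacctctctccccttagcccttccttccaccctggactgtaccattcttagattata
Gpx3 promoter: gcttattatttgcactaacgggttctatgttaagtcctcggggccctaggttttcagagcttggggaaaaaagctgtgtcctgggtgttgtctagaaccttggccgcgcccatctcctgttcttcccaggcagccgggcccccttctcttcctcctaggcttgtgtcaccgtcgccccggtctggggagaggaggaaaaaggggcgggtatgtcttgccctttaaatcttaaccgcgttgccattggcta
Txnrd1 promoter: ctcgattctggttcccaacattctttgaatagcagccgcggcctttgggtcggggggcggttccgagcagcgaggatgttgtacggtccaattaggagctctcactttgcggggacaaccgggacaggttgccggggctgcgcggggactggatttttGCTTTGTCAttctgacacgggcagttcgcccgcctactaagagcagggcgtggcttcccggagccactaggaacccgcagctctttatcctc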

How the data were processed

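Sorted ECs were profiled by RNA-seq in 16 libraries. Per the labels and the study's methods, the authors aligned the reads with TopHat (build GRCm38), took gene-wise counts with HTSeq 0.6.1 and deposited FPKM. The libraries were made with a stranded kit. The strand option of the counting and the step from counts to FPKM are not given in the sources used here. Replicates were not pooled.

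From these, log2(FPKM + 1) was tested in each comparison with limma 3.58.1 (R 4.3.3), with a mean-variance trend, over genes whose mean reached 1 FPKM. P-values are two-sided and Benjamini-Hochberg adjusted over all genes tested, and a gene was called at an adjusted p under 0.05. A fold change on this scale understates the change of low genes. Reads were recovered as FPKM times exon length (GENCODE M21) over the value of 1 read, and 62.4% to 70.1% of values of 20 reads or fewer lay within 0.02 reads of a whole number, so read numbers are estimates. The code of the fits was run on simulated libraries with a fixed spread, which says nothing about the spread of the real ones. No replicates were alike within sampling noise. The 9 members and all lists were chosen with earlier results of these data known. All 9 members are named, and from the other lists up to 4 called genes per direction with groups that do not overlap. Alternatives are an added constant of 0.1, a filter at 5 FPKM or none, scaling every library to the same total, quantile normalization, no trend, a replicate block and each replicate left out, and, added after seeing the data, limma-voom on recovered reads.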

Additional observations from a re-analysis of the deposited data

How the results depend on the processing

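Between bmECs and mpECs, 4 members were called, 2 without the mean-variance trend and 2 to 3 with any replicate left out. In the Lats2 comparison 5 were called, 6 with a filter at 5 FPKM (Sepn1 gained), 2 without a filter, 3 with scaling to the same total, 3 without the trend and 0 to 3 with any replicate left out. In the libraries labelled ECKO 0 were called, and 1 by limma-voom on recovered reads. Same-numbered replicates did not deviate together throughout (r = 0.307, 0.0876 and 0.102 for replicates 1, 2 and 3 of mpECs and bmECs, -0.175 to -0.123 for the second set, 0.0651 for Lats2), so the numbers were not taken as pairing. The values for mpECs and bmECs were all positive. Whether same-numbered libraries of these groups shared animals is not given in the sources used here. With a replicate block 4, 0 and 4 members were called, Txnrd1 in the Lats2 comparison being lost. Counts over all genes moved by over 1.5 times from 148 in the second set, to 1 without a filter, 17 without the trend, 45 with the replicate block, 70 with scaling, 358 with limma-voom and 1 to 293 with a replicate left out (1 without replicate 2 or 3 labelled ECKO). In the Lats2 comparison they moved from 2711 to 1389 without a filter and to between 0 and 2701 with a replicate left out (0 without either Lats2 Cont replicate, 933 without Lats2 cKO replicate 2).

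The sign changed only for members that did not pass the test. With scaling, limma-voom and quantile normalization, Sepw1 between regions went to log2 fold changes of -0.0157, -0.0749 and -0.0852, Gpx1 in the second set to -0.0287, -0.0358 and -0.0243, and Sephs2 there to -0.0048, -0.0272 and -0.0086. With scaling and limma-voom, Gpx3 between regions went to -0.06 and -0.13 and Sephs2 in the Lats2 comparison to -0.20 and -0.0735. With scaling, Gpx4 there went to -0.0124. With a replicate left out, log2 fold changes were -0.26 to 0.0921 for Gpx1, -0.055 to 0.34 for Gpx3 and -0.12 to 0.12 for Sephs2 between regions, -0.0413 to 0.0499 for Gpx1 and -0.083 to 0.11 for Sephs2 in the second set, and -0.0561 to 0.18 for Sephs2 in the Lats2 comparison. Gpx3 in the second set could be tested only without a filter, with scaling and without control replicate 1, at -0.18, -0.25 and -0.50, and did not pass. The cause was not tested. Depth limits Gpx3 and Selm in the second set most, at 2 to 57 reads.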
